A study of Mus musculus with 2 samples.

Results

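Ephrins and Eph receptors were examined here in endothelial cells sorted from mouse tumors, through 7 genes out of the 31055 in the count tables: the ephrin ligands Efnb2, Efnb1 and Efna1 and the receptors Ephb4, Ephb1, Epha2 and Epha4. The genes were chosen by symbol, with earlier results of these data known, and all 7 were detected in both libraries. Cells came from 2 orthotopic models, KPC tumor cells placed in the pancreas and PyMT tumor cells placed in the breast. In each model 100000 tumor cells were implanted in female C57BL6 mice of 6 weeks with a wild-type (WT) genotype, and the tumors were digested on day 10 and endothelial cells sorted. Each model gave 1 droplet library, in which a transcript is counted once by its unique molecular identifier (UMI), so that no replicate error exists and no test was run. Tumor line, organ, mice and library cannot be told apart between KPC and PyMT. The sources do not state how many mice were pooled, and name the reagent kit as v2 in one place and v3 in another.

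Ephrins are ligands held in the membrane, by a lipid anchor in the A class and by a transmembrane segment in the B class, and Eph receptors are tyrosine kinases on the neighboring cell. Contact between the 2 cells can signal in both directions, and usually steers cells apart or sorts them. In the embryo ephrin-B2 marks arterial and EphB4 venous endothelium, and the pair is known for keeping both vessel beds separate, while ephrin-A1 and EphA2 are known from angiogenesis.

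A barcode was kept if it showed 500 genes or more and had less than 10% of its UMIs from mitochondrial genes, which left 9591 of 10236 in KPC and 11744 of 12464 in PyMT, with medians of 3141 and 3978 UMIs. Each kept barcode was put in the first class whose marker UMIs passed a threshold, in the order tumor (Krt8 and Krt18), fibroblast (Col1a1 and Col1a2), lymphatic (Mmrn1 and Prox1), pericyte (Notch3 and Higd1b), venule (Ackr1 and Selp), artery (Gja5 and Sema3g), tip (Apln and Angpt2), capillary (Car4 and Cd300lg) and other. The artery class held 105 cells in KPC and 126 in PyMT, the venule class 640 and 360, the tip class 1302 and 1991, the capillary class 1297 and 2597, the lymphatic class 802 and 633, and the remainder (other) 4089 and 5603. Markers that the rule did not use bore out the artery, venule and lymphatic names, and the tip and capillary names less clearly. The summed artery list (Gkn3, Bmx, Hey1, Fbln5 and Stmn2) was 3691 and 1729 CPM (UMIs of a gene scaled to a total of 1000000) in the artery class, against 192 and 261 in the venule class. The tip list was 1355 CPM in KPC tip cells, against 838 in artery cells and 623 in the remainder, and 859 CPM in PyMT ones, against 599 in the remainder. The capillary list was 12439 CPM in KPC capillary cells, against 7696 in the remainder, but 4797 CPM in PyMT ones, near the 4011 of the remainder and the 3956 of venule cells and below the 10571 of the pericyte class. The tumor name was not borne out in PyMT, where Epcam, Krt7, Krt19, Cdh1 and Cldn4 summed to 40.7 CPM against 4558 CPM in KPC, so this class is called the Krt8/Krt18 class. The pericyte class also carried pan-endothelial markers, at 2202 and 2723 CPM, and with the PyMT fibroblast class it held under 50 cells in PyMT. The remainder carried lymphatic markers at 746 and 594 CPM. Thresholds on UMIs favor deep cells: tip cells had medians of 5449 and 5845 UMIs, KPC capillary cells 1879.

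The members lie on 7 chromosomes, and 6 of their promoters could be read free of transcript from the RefSeq table of GRCm38.p6. The 250 bases before the start are shown for Efnb2 and Epha4, whose levels were highest in the artery class. Also shown are Ephb4, known as the venous counterpart of Efnb2, and Efnb1, the member with the most matches to the Notch effector motif. Capitals mark TGGGAA (or TTCCCA on the other strand), the core bound by RBPJ, and CCAAT (or ATTGG), the box bound by NF-Y.
Efnb2 (chr8:8661243-8661492, minus strand): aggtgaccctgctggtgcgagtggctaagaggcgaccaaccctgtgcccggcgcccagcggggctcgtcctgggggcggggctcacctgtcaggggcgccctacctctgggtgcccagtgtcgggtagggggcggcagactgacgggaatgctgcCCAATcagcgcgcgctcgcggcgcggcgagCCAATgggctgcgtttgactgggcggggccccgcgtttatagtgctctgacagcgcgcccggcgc
Epha4 (chr1:77515089-77515338, minus strand): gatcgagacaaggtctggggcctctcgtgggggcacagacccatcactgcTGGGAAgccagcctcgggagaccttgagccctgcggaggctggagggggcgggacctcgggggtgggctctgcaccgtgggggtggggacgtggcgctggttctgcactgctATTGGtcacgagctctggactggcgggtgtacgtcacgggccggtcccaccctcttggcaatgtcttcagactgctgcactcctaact
Ephb4 (chr5:137349859-137350108, plus strand): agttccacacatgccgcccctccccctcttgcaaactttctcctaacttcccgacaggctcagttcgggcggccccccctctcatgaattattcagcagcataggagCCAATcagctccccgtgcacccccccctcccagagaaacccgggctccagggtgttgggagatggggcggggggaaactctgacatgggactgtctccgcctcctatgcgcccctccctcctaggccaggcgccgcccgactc
Efnb1 (chrX:99135811-99136060, plus strand): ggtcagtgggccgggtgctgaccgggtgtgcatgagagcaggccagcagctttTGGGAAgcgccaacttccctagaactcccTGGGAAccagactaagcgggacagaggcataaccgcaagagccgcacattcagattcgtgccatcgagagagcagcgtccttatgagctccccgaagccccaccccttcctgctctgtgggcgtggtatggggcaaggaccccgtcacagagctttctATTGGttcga
The Efnb2 promoter had 2 CCAAT boxes and no RBPJ core, and was the richest of the members in G and C, at 72.0% with 27 CpG pairs, against medians of 52.4% and 6 over 32851 promoters. The Ephb4 promoter also had 1 CCAAT box and no RBPJ core. RBPJ cores were found 2 times in Efnb1 and 1 time in Epha4, and lie over the GGAA core of ETS factors, which 93.4% of all promoters hold. The RBPJ core was present in 21.6% and the CCAAT box in 33.8% of all promoters. CCAAT was added to the search after the sequences were seen. These are letter matches and not measured binding.

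Efnb2 was highest in the artery class of both libraries. Its level there was 244 CPM (95% exact Poisson interval 193 to 304, 79 UMIs) in KPC and 211 CPM (172 to 256, 103 UMIs) in PyMT. In the venule class it was 12 CPM (8.32 to 16.6, 35 UMIs) and 16.0 CPM (10.3 to 23.8, 24 UMIs). The artery intervals lay apart from those of every other class in both libraries. The venule level in KPC did not stand above the 12.7 CPM of fibroblasts. How much of either level is background RNA was not tested. The log2 ratio of artery over venule was 4.35 (3.76 to 4.97) in KPC and 3.72 (3.07 to 4.43) in PyMT, rank 25 of 8999 and rank 21 of 7750 genes compared. All intervals cover counting error only.

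**Figure D1:**
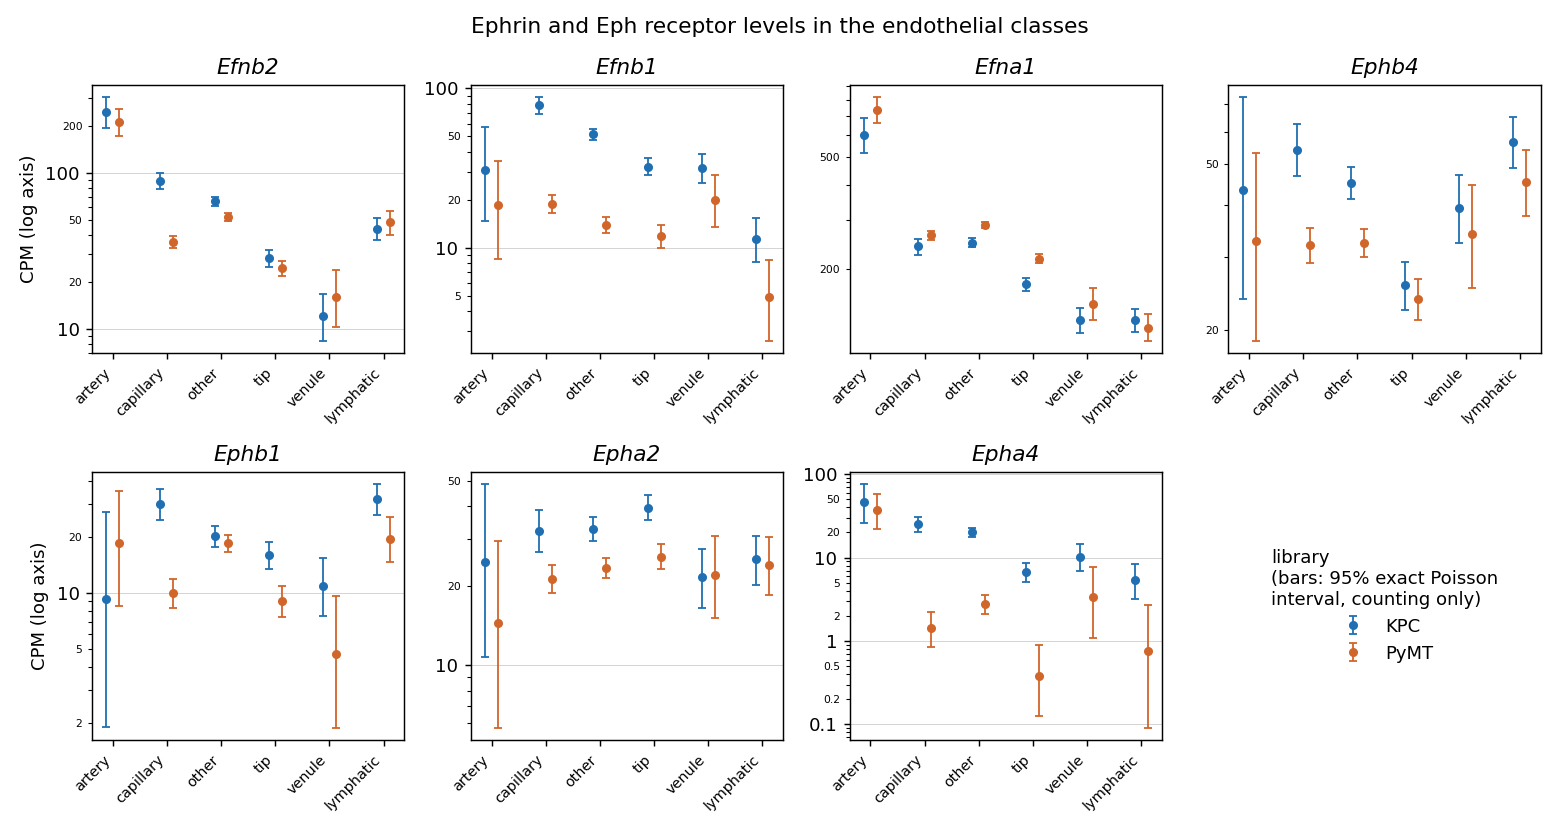
Level of each member (CPM of the summed UMIs of a class, log axis) in 6 endothelial classes of the KPC (blue) and PyMT (orange) libraries, with 95% exact Poisson intervals for counting error. Efnb2, Efna1 and Epha4 peak in the artery class, the Ephb4 intervals of artery and venule cells overlap, and Efnb1 and Epha4 lie lower in PyMT in capillary and tip cells.

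The artery class was not the only carrier of Efnb2. The capillary class of KPC was next, at 88.4 CPM (78.9 to 98.7), and the remainder followed at 65.3 CPM (60.7 to 70.2). In PyMT the capillary class had 35.9 CPM (32.7 to 39.3), below the remainder at 51.8 CPM (48.7 to 54.9). The pericyte class, which also carried endothelial markers, had 46.8 CPM (29.7 to 70.2, 23 UMIs) in KPC and 84.0 CPM (40.3 to 155, 10 UMIs) in PyMT. Lymphatic cells carried 43.5 and 48.0 CPM, and tip cells 28.2 and 24.4 CPM. The order of capillary and lymphatic cells thus differed between the libraries, whereas the tip and venule classes were the lowest endothelial classes in both. Within the artery class the level held for cells marked by Gja5 alone, at 251 CPM (166 to 366, 32 cells) in KPC and 188 CPM (140.2 to 246, 67 cells) in PyMT. Cells marked by Sema3g alone gave 161 CPM (82.9 to 280.4) from 23 cells and 82.3 CPM (22.4 to 211) from 12 cells, too few to set their order against the Gja5 cells.

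Efna1, the ligand of the A class, was the most abundant member. It gave 49.8% of all ephrin and Eph UMIs of the 5 blood endothelial classes (venule, artery, tip, capillary and remainder) in KPC and 67.1% in PyMT. UMIs of this protocol tag transcript ends and were not divided by length. Its level was 599.7 CPM (518 to 690.3) in the KPC artery class and 738 CPM (664 to 819) in the PyMT one. The venule class had 132 CPM (119 to 146) and 151 CPM (132 to 172). Capillary cells lay between, at 241 and 264 CPM, above tip cells at 177 and 218 CPM. Artery over venule was a log2 ratio of 2.19 (1.93 to 2.44) and 2.29 (2.04 to 2.53).

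Efnb1, the ligand encoded on the X chromosome, showed no such pattern. Artery and venule levels were 30.9 CPM (14.8 to 56.9) and 31.8 CPM (25.6 to 38.9) in KPC, and 18.5 CPM (8.44 to 35.0) and 20.0 CPM (13.5 to 28.5) in PyMT. The ratios of -0.04 (-1.15 to 0.90) and -0.12 (-1.38 to 1.0) leave room for a 2-fold difference in either direction or nearly so. KPC capillary cells carried the highest endothelial level, 78.3 CPM (69.4 to 88.0).

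Ephb4, the receptor of ephrin-B2 named for veins, did not differ detectably between artery and venule cells. The KPC venule class had 39.3 CPM (32.4 to 47.1, 115 UMIs) and the artery class 43.3 CPM (23.7 to 72.6, 14 UMIs). In PyMT the values were 34.0 CPM (25.3 to 44.7, 51 UMIs) and 32.8 CPM (18.8 to 53.3, 16 UMIs). The log2 ratios of 0.14 (-0.78 to 0.95) and -0.05 (-0.96 to 0.78) do not reach a venule level 2 times that of artery cells, within counting error and with the classes as set here. This bound was lost under 2 alternatives in KPC, at -1.26 with class thresholds raised by 1 UMI and -0.18 with cells thinned to 2000 UMIs. In PyMT it was lost under 3, at -0.16 without cells passing over 1 rule, -0.18 with the other class order and -0.30 after thinning. The intervals then allow a venule level over 2 times that of artery cells. Lymphatic cells ranked first in both libraries, at 56.5 CPM (49.0 to 65.0) and 45.4 CPM (37.6 to 54.2), though their interval overlapped that of the next class. Tip cells, at 25.6 and 23.7 CPM, were the lowest endothelial class. Zan, a gene on the opposite strand, overlaps the Ephb4 locus (GRCm38 chr5:137350109-137378669), and counting by strand is not given in the sources used here.

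Epha4, a receptor that binds ligands of both classes, was also highest in the artery class. In KPC its interval there overlapped that of the next class, the capillary cells. In PyMT the next class was the pericyte class, with 27 cells and 2 UMIs, and the intervals overlapped. The PyMT artery interval lay apart from that of every other endothelial class. KPC artery cells had 46.4 CPM (26.0 to 76.5, 15 UMIs) and venule cells 10.2 CPM (6.91 to 14.6, 30 UMIs). PyMT artery cells had 36.9 CPM (21.9 to 58.3, 18 UMIs) and venule cells 3.33 CPM (1.08 to 7.78, 5 UMIs). The log2 ratios were 2.18 (1.18 to 3.12) and 3.47 (1.99 to 5.25). The PyMT ratio rests on 23 UMIs, and with cells thinned to 2000 UMIs it was 2.41 (-0.39 to 5.88) and no longer passed.

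Epha2, the main partner of ephrin-A1, and Ephb1, another B-class receptor, gave few UMIs in artery cells. Epha2 had 8 UMIs in KPC artery cells and 7 in PyMT ones, with log2 ratios over venule cells of 0.20 (-1.07 to 1.27) and -0.62 (-2.04 to 0.59). Among endothelial classes it was highest in tip cells, at 39.6 CPM (35.5 to 44.1) and 25.8 CPM (23.1 to 28.7), and the tip interval overlapped that of the class below it in both libraries. Ephb1 was highest in lymphatic cells, at 31.9 CPM (26.3 to 38.4) and 19.5 CPM (14.6 to 25.6), though the interval overlapped that of the next class in both, and after thinning the KPC capillary class was above it, at 33.5 against 30.9 CPM. Its lowest endothelial levels were 9.27 CPM (3 UMIs) in KPC artery cells and 4.67 CPM (7 UMIs) in PyMT venule cells. The Ephb1 locus overlaps 2 opposite-strand genes, 9630041A04Rik and Gm26846.

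A gene was counted as higher or lower in a comparison when it had at least 20 UMIs over both classes, differed at least 2-fold and had an interval that left out equality. In artery over venule, 3 of 7 members compared were higher in KPC and 3 of 6 in PyMT, the same 3 in both (Efnb2, Efna1 and Epha4), and none was lower. After thinning, Epha4 no longer passed in either library, which left 2 members in each, and in PyMT it failed under 5 of 8 alternatives. Of all genes, 6.43% were higher and 4.19% lower in KPC, and 5.01% and 6.12% in PyMT. Over both libraries 224 of 7685 genes, 2.91%, were higher in each. In artery over capillary, a comparison added after the data were seen, Efnb2 and Efna1 were higher in both libraries and Epha4 in PyMT, while Efnb1 and Ephb1 were lower in KPC. Under 8 alternatives the KPC call was lost 3 times for Efnb1 and 4 times for Ephb1, which rests on 3 artery UMIs. A KPC call was gained 4 times for Epha4 and 1 time, as lower, for Epha2. The PyMT call was lost 1 time for Epha4 and gained 2 times for Ephb1. The shares of all genes were 4.48% higher and 4.30% lower in KPC, and 5.71% and 3.56% in PyMT. Epha4 artery over capillary was 0.88 (-0.01 to 1.68) in KPC and 4.70 (3.68 to 5.73) in PyMT, intervals that lie apart.

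**Figure D2:**
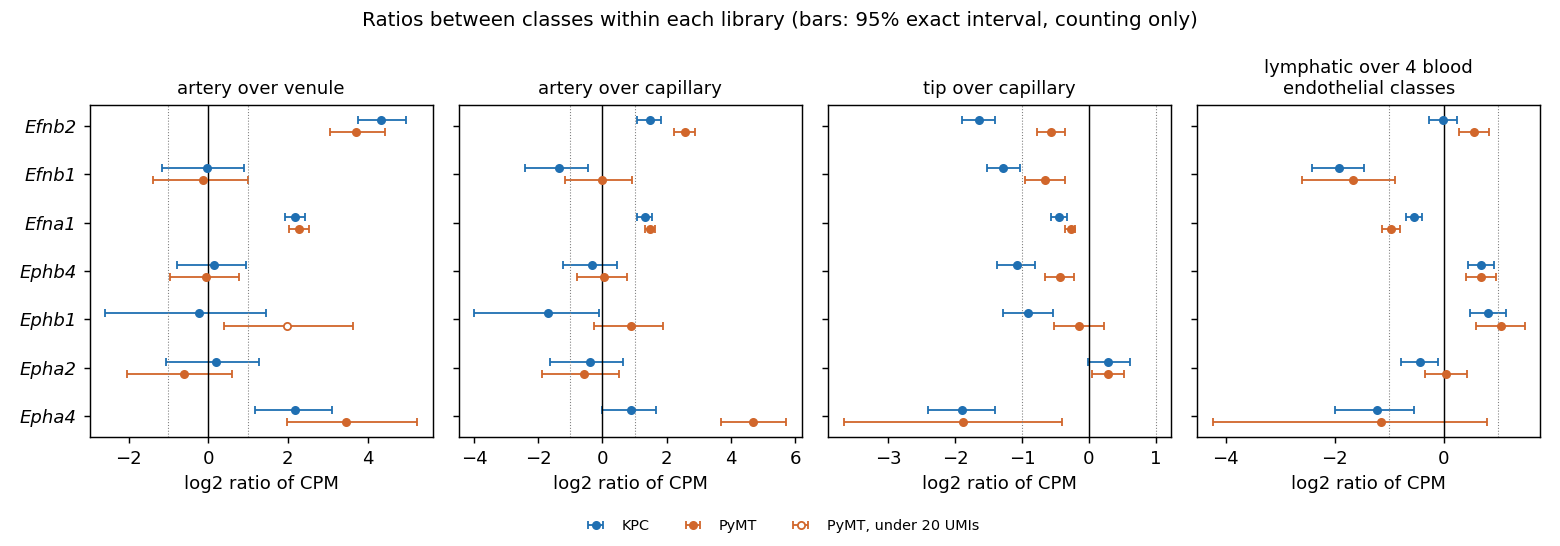
Log2 ratio of CPM of each member between classes, in KPC (blue) and PyMT (orange), with 95% exact intervals for counting error, dotted lines at a 2-fold difference and an open point for under 20 UMIs. Efnb2 artery over venule stands at 4.35 and 3.72, and Ephb4 lies near 0.

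Tip cells, which lead sprouts, carried less of several members than capillary cells. In KPC 4 of 7 members were lower in tip cells, and none was higher, where 7.02% of all genes were lower and 2.98% higher. These were Efnb2 at -1.65 (-1.90 to -1.40), Epha4 at -1.90 (-2.41 to -1.41), Efnb1 at -1.28 (-1.52 to -1.03) and Ephb4 at -1.08 (-1.37 to -0.80), as log2 ratios. Thinning both classes to the same depth left out 700 of 1297 capillary cells and 65 of 1302 tip cells. Efnb2 then stood at -1.80 (-2.24 to -1.36), while Efnb1 at -0.84 and Ephb4 at -0.90 no longer reached 2-fold. Under 8 alternatives the KPC call was lost 2 times for Efnb1 and 3 times for Ephb4. In PyMT 1 of 7 was lower, Epha4 at -1.88 (-3.67 to -0.40) from 5 and 18 UMIs, where 1.55% of genes were lower and 0.782% higher. Efnb2 was at -0.56 (-0.77 to -0.35) there. The Efnb2 intervals of the libraries lay apart, with the larger difference in KPC, where the capillary level was also the higher one.

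Lymphatic endothelial cells, which the sort depleted by podoplanin but did not remove, carried less Efnb1 than the 4 named blood endothelial classes. Efnb1 was at 11.3 CPM (8.08 to 15.4, 40 UMIs) in KPC lymphatic cells and 4.87 CPM (2.59 to 8.33, 13 UMIs) in PyMT ones, against 42.9 and 15.6 CPM in blood endothelial cells. The log2 ratios were -1.92 (-2.42 to -1.46) and -1.67 (-2.60 to -0.89). It was the 1 member of 7 lower in both libraries, beside 4.19% of all genes. Epha4 was also lower in KPC, at -1.22 (-1.99 to -0.54), and lost this under 1 of 8 alternatives, where 8.33% of all genes were lower and 9.07% higher. Ephb1 was higher in PyMT, at 1.06 (0.60 to 1.49), with 0.82 (0.49 to 1.14) in KPC, where PyMT had 10.7% of genes higher and 4.90% lower, and the PyMT call was lost under 2 of 8 alternatives. Efna1 was just short of a 2-fold difference in PyMT, at 124 against 244 CPM and -0.97 (-1.14 to -0.81), which passed under 3 of 8 alternatives, with -0.54 (-0.69 to -0.40) in KPC. Ephb4 was at 0.68 (0.44 to 0.92) and 0.69 (0.40 to 0.96), above equality by counting error but under 2-fold. Efnb2 stood at -0.01 (-0.27 to 0.25) in KPC and at 0.56 (0.28 to 0.83) in PyMT, and with the remainder included blood endothelial cells of KPC had 52.9 CPM against 43.5 CPM in lymphatic cells.

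Between the libraries, Epha4 and Efnb1 were the members that differed 2-fold or more. Summed over the 5 blood endothelial classes, Epha4 was 15.7 CPM (418 UMIs) in KPC and 2.13 CPM (104 UMIs) in PyMT, a log2 ratio of PyMT over KPC of -2.89 (-3.21 to -2.57). Efnb1 was 46.5 CPM (1237 UMIs) and 14.8 CPM (726 UMIs), a ratio of -1.65 (-1.78 to -1.51). So 2 of 7 members were lower in PyMT and none higher, where 10.0% of all genes were lower and 3.45% higher. The other 5 members lay between -0.53 for Epha2 and 0.28 for Efna1, each with an interval that left out 0, beside a median of -0.14 over all genes.

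**Figure D3:**
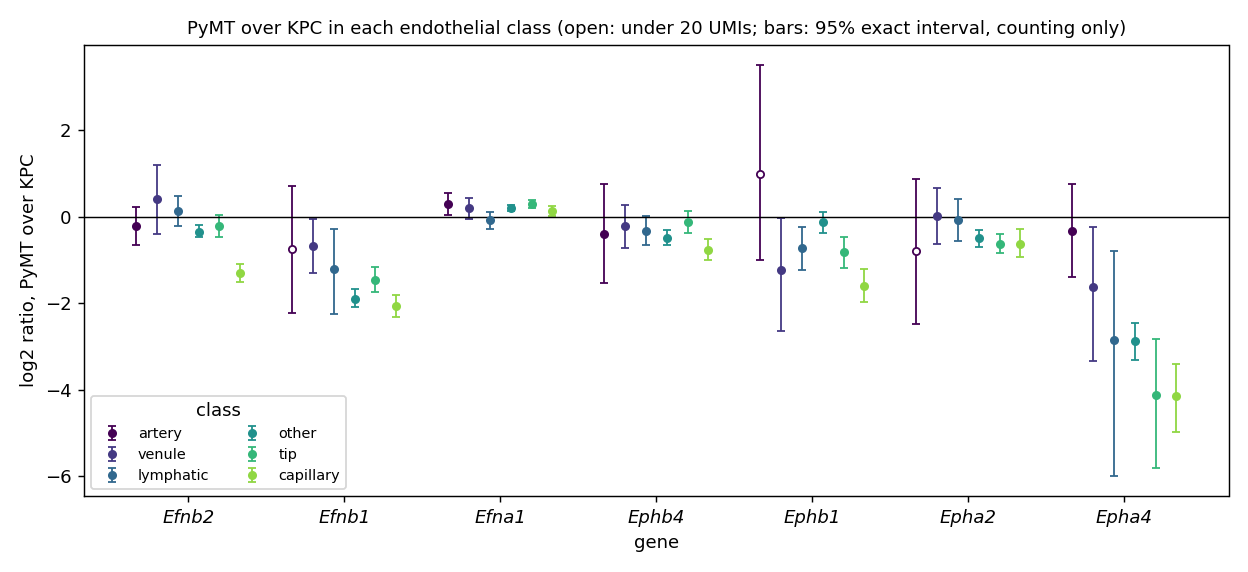
Log2 ratio of PyMT over KPC for each member in 6 endothelial classes (colors), with 95% exact intervals for counting error and open points for under 20 UMIs. Epha4 runs from -0.33 in artery cells to -4.15 in capillary cells, and Efna1 stays between -0.08 and 0.30.

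The size of the Epha4 difference depended on the class. In capillary cells it was -4.15 (-4.97 to -3.41), from 25.2 CPM in KPC to 1.42 CPM in PyMT, and in tip cells -4.13 (-5.81 to -2.82), from 6.72 to 0.384 CPM. In artery cells it was -0.33 (-1.40 to 0.76), an interval apart from the capillary and tip ones. The PyMT level of Epha4 was highest in artery cells, where 12.7% of cells had a UMI (exact Clopper-Pearson interval 7.44 to 19.8) against 1.39% of venule cells (0.452 to 3.21), at median depths of 3439 and 3486 UMIs. After thinning the shares were 3.74% (1.03 to 9.30) and 0.702% (0.0851 to 2.51), with intervals that overlapped. Efnb1 was lower in PyMT in capillary cells at -2.06 (-2.32 to -1.81), in tip cells at -1.45 (-1.74 to -1.16) and in lymphatic cells at -1.21 (-2.24 to -0.28). In capillary cells Ephb1 was also lower in PyMT, at 9.92 against 29.9 CPM and -1.59 (-1.98 to -1.21), so that with Efnb2 4 of 7 members were lower there and none higher, where 10.7% of all genes were lower and 3.80% higher. Efnb2 was at -1.30 (-1.51 to -1.09) in capillary cells and at -0.21 (-0.65 to 0.23) in artery cells. The capillary classes differed in depth, with medians of 1879 and 4254 UMIs, and in their capillary list (Gpihbp1, Rgcc, Fabp4, Cd36 and Timp4), at 12439 and 4797 CPM. Whether either has a part in these differences was not tested.

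Epithelial markers also differed between the libraries, at 19.9 to 27.7 CPM in the KPC endothelial classes and 0 to 11.6 CPM in the PyMT ones. In KPC they stood at 0.437% to 0.607% of their level in the Krt8/Krt18 class. Epha4 in KPC capillary cells was 163% of its level in that class (15.4 CPM) and Efnb1 119% of its level (66.0 CPM). The part of epithelial RNA in these differences was not tested. Outside the endothelium, KPC Krt8/Krt18 cells carried Efnb1 at 66.0, Efna1 at 66.5 and Epha2 at 56.2 CPM, and Ephb1 at 1.19 CPM. KPC fibroblasts carried Efnb1 at 61.0 CPM (51.4 to 71.8), close to the capillary level, with Epha2 at 5.50 CPM and Ephb1 at 2.12 CPM. Pericytes were compared with the 4 named blood endothelial classes. In KPC 0 of 7 members were higher or lower, beside 6.54% and 2.77% of all genes. In PyMT, with 27 pericytes, Efnb2, Efnb1 and Epha4 were higher and 0 lower, beside 5.89% and 1.28%. Under 8 alternatives these calls were lost 2, 2 and 3 times.

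The artery pattern was also looked for outside the artery class, since that class is small and set by thresholds. Blood endothelial cells were thinned to 2000 UMIs each, the artery class was left out, and cells were sorted by their UMIs of the artery list, which holds no member and no gene of the rule. Efnb2 was 37.4 CPM (33.1 to 42.2) in KPC cells without a UMI of the list and 191 CPM (145 to 247) in cells with 3 or more. In PyMT it was 32.7 CPM (29.8 to 35.7) and 90.2 CPM (62.1 to 127). Efna1 likewise stood at 191 and 414 CPM in KPC and 245 and 497 CPM in PyMT, with intervals apart in both. Ephb4 was 39.8 CPM (35.3 to 44.7) and 55.9 CPM (32.6 to 89.5) in KPC. In PyMT it was 30.7 CPM (27.9 to 33.7) and 51.9 CPM (31.3 to 81.1), and the intervals overlapped in both libraries. Cells with 1 and 2 UMIs of the list had Ephb4 at 36.3 and 44.1 CPM in KPC and at 35.2 and 43.9 CPM in PyMT. The PyMT level thus rose at each step, and the overlap does not show that Ephb4 was level. Epha4 stood at 11.7 CPM (9.38 to 14.5) and 36.2 CPM (18.1 to 64.7, 11 UMIs) in KPC. In PyMT it was 1.44 CPM (0.890 to 2.20) and 13.7 CPM (4.44 to 31.9, 5 UMIs), with intervals apart in both libraries. Efnb2, Efna1 and, from few UMIs, Epha4 were therefore graded along the artery list among cells that the rule had not called artery.

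**Figure D4:**
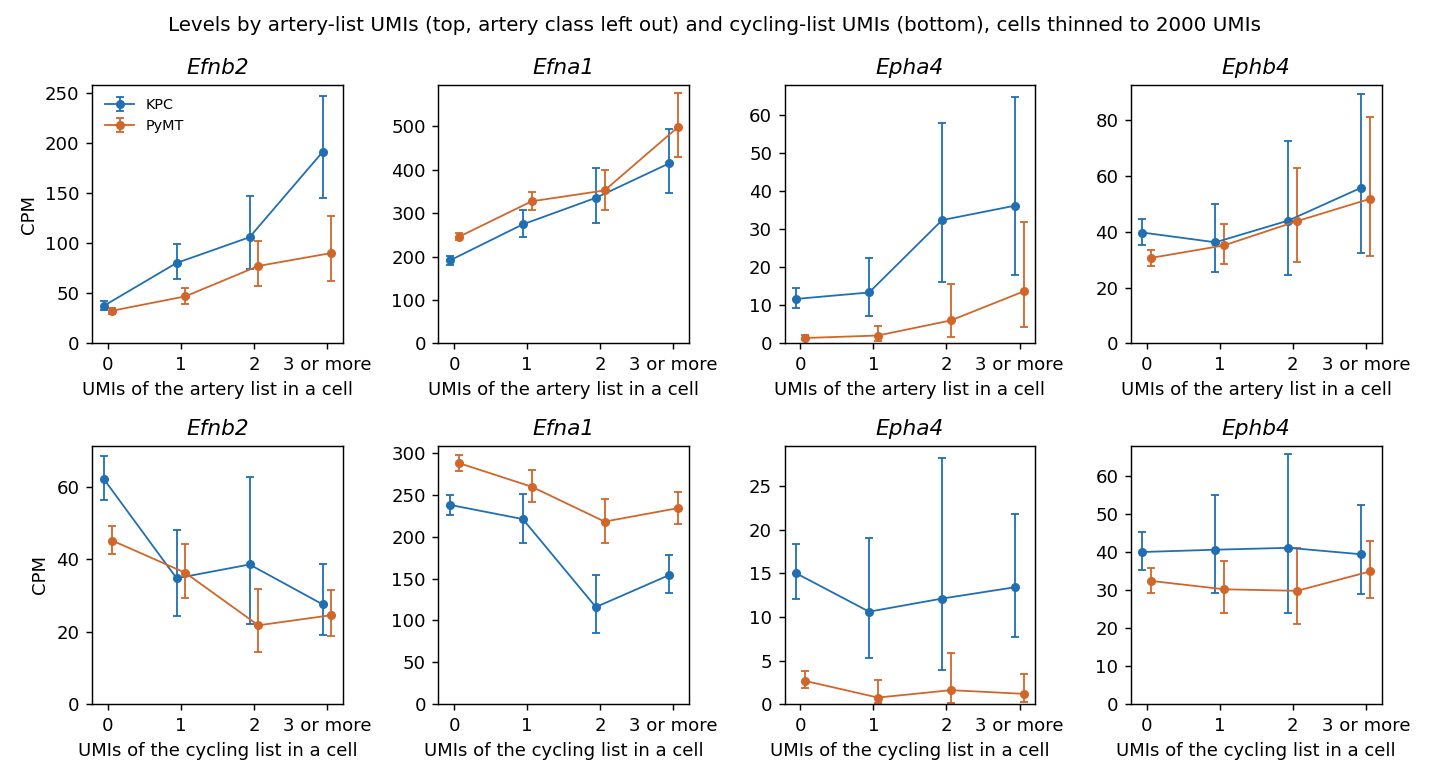
Levels of 4 members (CPM, linear axes from 0) in blood endothelial cells thinned to 2000 UMIs, by the UMIs of the artery list without the artery class (top) and by those of the cycling list (bottom), in KPC (blue) and PyMT (orange) with 95% exact Poisson intervals. Efnb2 reaches 191 and 90.2 CPM in cells with 3 or more artery-list UMIs, and Ephb4 is level along the cycling list.

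Cycling cells carried less Efnb2 and Efna1. In cells with 3 or more UMIs of the cycling list (Mki67, Top2a, Cdk1, Ccnb1 and Birc5), Efnb2 was 27.6 CPM (19.0 to 38.8) in KPC and 24.6 CPM (18.8 to 31.5) in PyMT. Cells with none had 62.3 CPM (56.3 to 68.7) and 45.2 CPM (41.5 to 49.1). Efna1 stood at 154 against 238 CPM and at 234 against 288 CPM, again with intervals apart. Efnb1 was 26.8 CPM (18.3 to 37.8) against 46.9 CPM (41.7 to 52.5) in KPC. In PyMT it was 11.1 CPM (7.37 to 16.0) against 16.7 CPM (14.5 to 19.2), with intervals that overlapped. Ephb4 was nearly equal, at 39.4 CPM (28.9 to 52.3) against 40.0 CPM (35.3 to 45.2) in KPC and 34.9 CPM (28.0 to 43.0) against 32.4 CPM (29.3 to 35.8) in PyMT. The classes differ in the cycling list, at 734 CPM in PyMT tip cells and 146 CPM in PyMT artery cells. With the artery class left out, Efnb2 was 27.0 CPM (18.5 to 38.2) against 58.4 CPM (52.5 to 64.6) in KPC. In PyMT it was 23.0 CPM (17.5 to 29.8) against 42.5 CPM (38.9 to 46.3). Efna1 then stood at 154 against 230.4 CPM in KPC and at 234 against 281 CPM in PyMT. The levels were not split by the remaining classes, so the part of those classes in the differences was not tested.

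Ligand and receptor transcripts were then compared in the same cells, after thinning. Ephb4 was detected in 7.25% (4.94 to 10.2) of KPC blood endothelial cells with an Efnb2 UMI and in 7.60% (6.81 to 8.45) of those without. In PyMT the shares were 6.77% (5.00 to 8.93) and 6.09% (5.59 to 6.61). Detection of Ephb4 thus differed by less than counting error between cells with and without Efnb2. For comparison, KPC fibroblasts thinned alike had Ephb4 in 2.70% (1.35 to 4.77) and Efnb2 in 2.70% (1.35 to 4.77). Whether these UMIs are background RNA or their own was not tested. Pooled over the classes, Efna1 was detected more often in cells with an Efnb2 UMI, 45.7% against 31.0% in KPC and 50.1% against 37.9% in PyMT. So was Epha4 in KPC, 5.56% (3.55 to 8.22) against 2.45% (2.00 to 2.97). Within a class the Efna1 intervals lay apart in the remainder of both libraries and in PyMT capillary cells, and overlapped elsewhere. In artery cells the Efna1 shares were 67.9% against 66.7% in KPC and 65.6% against 72.0% in PyMT. The KPC Epha4 intervals lay apart in the remainder only, with 10.7% against 10.3% in artery cells. Epha2 did not go with its ligand Efna1, at 6.68% against 6.07% and 4.63% against 4.59%.

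The study centers on Nr2f2, which encodes COUP-TFII, the factor of venous identity, so the members were also read in cells with and without an Nr2f2 UMI. Ephb4 was detected in 8.88% (6.47 to 11.8) of KPC cells with Nr2f2 and 7.42% (6.63 to 8.27) of those without, and in 8.24% (6.32 to 10.5) and 5.96% (5.47 to 6.48) in PyMT. Both shares were higher with Nr2f2, and the intervals overlapped. Of 10 comparisons within a class, the intervals lay apart in 2, with more Ephb4 beside Nr2f2. These were KPC tip cells, 14.5% (6.86 to 25.8) against 5.02% (3.84 to 6.43), and the PyMT remainder, 10.3% (7.21 to 14.2) against 6.27% (5.57 to 7.04). The intervals overlapped in the other 8, venule cells of both libraries included. Among these, the share was lower with Nr2f2 in KPC capillary cells, 4.65% against 9.75%, and in the KPC remainder, 8.02% against 8.17%. It was also lower in PyMT tip cells, 3.82% against 4.31%. Efnb2 was detected in 5.92% (3.97 to 8.44) against 9.51% (8.63 to 10.5) in KPC, with intervals apart, and in 6.53% (4.82 to 8.62) against 7.32% (6.78 to 7.89) in PyMT, with intervals that overlapped, as they did in all 10 comparisons within a class. Pooled over the classes, Efna1 was detected less often with Nr2f2 in both libraries. The shares were 26.4% (22.5 to 30.6) against 33.1% (31.6 to 34.5) in KPC. In PyMT they were 33.0% (29.5 to 36.6) against 39.2% (38.2 to 40.3). Of the 10 Efna1 comparisons within a class, only the PyMT remainder had intervals apart, 31.9% (26.8 to 37.3) against 41.3% (39.8 to 42.8). The Efna1 share was higher with Nr2f2 in KPC tip cells, 32.3% against 28.5%, and in PyMT venule and artery cells, with intervals that overlapped. Ephb1 was detected in 0.852% (0.313 to 1.85) of PyMT cells with Nr2f2 against 2.60% (2.28 to 2.96) of those without, and at 3.59% and 3.55% in KPC. Within a class the Ephb1 intervals lay apart only in the PyMT remainder, 0.938% (0.194 to 2.72) against 3.28% (2.77 to 3.85). For Efnb1, Epha2 and Epha4 the pooled intervals overlapped in both libraries. Within a class they lay apart only for Epha2 in the KPC remainder, 11.4% (7.64 to 16.1) with Nr2f2 against 6.29% (5.23 to 7.49) without. The remainder also carried lymphatic markers, and the part of lymphatic cells in its results was not tested.

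The rest of the family was scarce in these cells. Of 15 other ephrins and Eph receptors, 8 had at least 20 UMIs in a library, and the 7 members gave 97.4% of the family's UMIs in the 5 blood endothelial classes of KPC and 98.8% in PyMT. Efna5, an A-class ligand, was higher in lymphatic than in blood endothelial cells, at 15.8 CPM against 1.18 CPM in KPC and 7.12 against 0.505 CPM in PyMT, log2 ratios of 3.75 (2.96 to 4.61) and 3.82 (2.74 to 4.92). Yet the artery class, which is among these blood endothelial classes, lay above the lymphatic class in point value in both libraries, from few UMIs. Efna5 was there at 37.1 CPM (19.2 to 64.8, 12 UMIs) in KPC and at 12.3 CPM (4.52 to 26.8, 6 UMIs) in PyMT. Efna4 was higher in PyMT lymphatic cells, at 2.11 (1.28 to 2.89), with 0.98 (0.14 to 1.77) in KPC. Epha3 and Ephb2, both receptors, were found in KPC fibroblasts, at 71.5 CPM (61.2 to 83.2) and 15.2 CPM (10.7 to 21.1), and Epha7 in the KPC Krt8/Krt18 class, at 4.96 CPM. Ephb6 was at 2.94 CPM (2.01 to 4.15) in the KPC Krt8/Krt18 class and 4.23 CPM (2.03 to 7.78) in KPC fibroblasts, with intervals that overlapped. Efna2 and Efnb3 were at 2.48 and 2.86 CPM in KPC blood endothelial cells and lower in PyMT, at -2.53 (-3.31 to -1.80) and -2.04 (-2.67 to -1.44).

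Among 34 signaling partners of the receptors (adaptors, exchange factors, kinases, phosphatases and proteases), none of 23 was higher or lower in artery over venule in both libraries, and none of 29 in tip over capillary. Of all genes, 2.91% were higher and 1.91% lower in both for the former, and 0.270% and 0.784% for the latter. In lymphatic over blood endothelial cells 2 of 29 were higher in both, beside 6.44% of all genes. These were Vav3, an exchange factor, at 1.33 (1.06 to 1.61) and 1.98 (1.69 to 2.26), and Itsn1, an endocytic scaffold with exchange activity, at 2.64 (2.23 to 3.05) and 2.16 (1.70 to 2.60).

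The genes most like each member over the 12 sums of the 6 endothelial classes were found by Pearson r of log2(CPM + 10). These sums share library, depth and class rule, so r is a description. For Efnb2 they were Rit1 (0.987), the arterial connexin Gja4 (0.972) and Cables2 (0.965), and for Epha4 Skil (0.979), Lama3 (0.973) and Abhd16a (0.968). For Efna1 they were Fes (0.974), Sat1 (0.970) and Armcx6 (0.963), for Efnb1 Plpp3 (0.970), Tmed5 (0.968) and Prkch (0.965), and for Ephb4 Tnrc6b (0.976), Pros1 (0.947) and Rbm39 (0.937). For Ephb1 they were Tex264, Sptan1 and March7 (0.886 to 0.876), and for Epha2 Siah2, Cklf and Abt1 (0.899 to 0.884). Among the members, Efnb2 went with Efna1 (0.848) and Epha4 (0.793), and with Ephb4 at 0.303.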

How the data were processed

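UMI counts per gene and barcode were deposited by the authors as whole numbers without normalization, after alignment to mm10 with Cell Ranger (3.0 in the submitters' processing notes, 3.0.2 in the file headers). The total was 44441942 UMIs in KPC and 55547926 in PyMT, and 170 barcode sequences occurred in both. From these counts, UMIs were summed per class and library, levels were given as CPM with exact Poisson intervals, shares with Clopper-Pearson intervals and ratios with exact conditional intervals, at 95% and for counting error only (Python 3.11.15, numpy 2.4.6, scipy 1.17.1, pandas 2.3.3). The class rule needed summed UMIs of at least 5 (tumor), 10 (fibroblast), 3 (lymphatic, venule and tip) or 2 (pericyte, artery and capillary). With 1 library per model no test was made. The ratio was tested on simulated Poisson counts drawn from the artery and venule sums. This is the counting model of the interval itself, so spread between cells and errors of class were not covered. No doublet caller was run; 7.59% of KPC and 10.5% of PyMT cells passed over 1 class rule. Thinning drew 2000 UMIs per cell and left out shallower cells (2902 of 7433 blood endothelial cells in KPC, 1322 of 10677 in PyMT). The members and lists were chosen with earlier results of these data known. Named genes were the members, family genes with at least 20 UMIs in a library, partners passing in both libraries in 1 direction, and the 3 genes of highest r per member; artery over capillary, the splits by artery and cycling lists and by rule gene, and the CCAAT box were added after the data were seen. Alternatives covered the barcode filter, class thresholds and order, doublets, thinning and per-cell means. For per-cell means no interval was made, and a ratio passed on a 2-fold difference alone. Positions are from GENCODE M21.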

Additional observations from a re-analysis of the deposited data

How the results depend on the processing

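Efnb2 and Efna1 artery over venule kept their direction and passed in both libraries under all 8 alternatives. The log2 ratios for Efnb2 were 4.07 to 4.99 in KPC and 3.74 to 4.26 in PyMT. Ephb4 passed in none of the 8 (-1.26 to 0.19 in KPC and -0.42 to 0.41 in PyMT). Under the per-cell mean a ratio passed on a 2-fold difference alone, without an interval or a UMI minimum. Of 920 member ratios under an alternative, 856 stayed passing or not passing, 42 no longer passed, 19 newly passed and in 3 a ratio that had passed changed sign. Among the 856, 59 that passed in neither setting changed sign, Ephb4 artery over venule among them. The 3 were Ephb1 PyMT over KPC in venule cells, -1.23 as reported, which was 0.07 without cells passing over 1 rule, 0.07 with the other class order and 1.17 after thinning. Epha4 artery over venule in PyMT failed under 5 of 8, in which it had under 20 UMIs or its interval held 0. After thinning, genes passing numbered 627 (956 as reported) in KPC and 537 (862) in PyMT for artery over venule, and 2 members instead of 4 passed in KPC tip over capillary and 0 instead of 1 in PyMT. With at least 100 UMIs, 540 and 278 genes passed for artery over venule, and 633 (of 1091) and 87 (of 268) for tip over capillary, with 0 members in PyMT. At 4-fold these were 283, 263, 244 and 45, with 0 members in tip over capillary in both libraries. In PyMT artery over venule gave 570 without cells passing over 1 rule and 563 with the other class order, which left 0 members in PyMT tip over capillary. Under the stricter barcode filter (1000 genes or more, mitochondrial share below 5%), 1 member passed in KPC lymphatic over blood endothelial cells. Over all classes with at least 50 cells, 6 of 7 members shared fewer than 2 of their 3 most similar genes with those named. No paired analysis was possible because each tumor model has 1 library. Of the 6 endothelial classes, the artery class had the fewest UMIs, and 3 counts there make 9.27 CPM in KPC and 6.15 CPM in PyMT.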
